A study of Mus musculus with 4 samples.

Results

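The cells described here were luminal progenitors of the mouse mammary gland with a high summed count of 4 genes, Cd14, Spp1, Wfdc17 and Lbp. They numbered 438 of 4382 luminal progenitors, out of 18223 cell barcodes in all, of which 17832 had at least 1000 UMIs (unique molecular identifiers, each standing for 1 counted transcript). A cell was taken as a luminal progenitor when the UMIs of the luminal keratins Krt8, Krt18 and Krt19 summed to at least 5 and to more than 3 times those of the basal genes Krt5, Krt14, Krt17 and Acta2. It also needed at least 3 UMIs of Wfdc18, Csn3 and Ltf together, and more of them than of Ly6d, Fxyd2 and Gpx3, which mark hormone-sensing luminal cells. The progenitors were ranked by a score, the UMIs of Cd14, Spp1, Wfdc17 and Lbp per 10000 UMIs of the cell. The top 10% over all libraries were the members, and they were thus selected on measured values.

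Each library held epithelium of the mammary gland from an FVB mouse, Tfap2c fl/fl and with Krt5-CreERT2. All 4 mice, the controls included, carried both alleles, and each library came from 1 mouse. In 2 of them 4OHT, which lets CreERT2 enter the nucleus, was injected, and in the other 2 only its corn oil carrier. Injections began at week 4 after birth, and the fourth mammary glands were taken at week 9. Cre is driven here by the promoter of Krt5, a basal keratin, whereas the members are luminal.

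Luminal progenitors line the ducts of the gland and give rise to the alveolar cells that make milk. They are known for expressing genes of innate defence, among them Cd14, which encodes the co-receptor that hands bacterial lipopolysaccharide (LPS) to the Toll-like receptor Tlr4. Lbp encodes the plasma protein that carries LPS to CD14. Spp1 encodes osteopontin, a secreted phosphoprotein that binds integrins and CD44, and Wfdc17 encodes a small secreted protein of the whey acidic protein family.

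The libraries held between 3546 and 5545 cell barcodes and between 17351950 and 22017878 UMIs. The targeted gene, Tfap2c (ENSMUSG00000028640, chromosome 2 from 172549593 to 172558622, plus strand, GRCm38, GENCODE vM21), was examined first, in the basal cells where Cre is driven. The level, as plain CPM (the gene's share of all UMIs of the summed cells, without TMM scaling), was 389 and 285 in basal cells after corn oil. It was 285 and 325 after 4OHT. The 4OHT libraries were not below both corn oil libraries by more than these differ from each other, so the groups below are named by their labels, corn oil-labelled and 4OHT-labelled. Members had 53.4 and 40.4 plain CPM of Tfap2c in the corn oil-labelled libraries and 37.2 and 39.9 in the 4OHT-labelled ones, from 20 to 46 UMIs per library. A 3′ count can include transcripts that lost an internal exon, so this count does not measure the deletion itself. Of 18067 distinct barcodes, 155 occurred in more than 1 library; 6 members had a barcode that was also found in another library, and 0 barcodes were shared by members of different libraries.

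The sequences just before the start sites of Spp1 and Wfdc17, the score genes with an entry in the RefSeq promoter table used here, are shown with those of 3 genes of the interferon response that differed between members and the other progenitors (Irf7, Ifit3 and Isg15). Each window holds the 250 bases before the annotated start (for Spp1, the first of 2 starts in the table) on GRCm38.p6, written 5′ to 3′ on the gene's strand, and capitals mark matches to any of 5 short motifs.
Spp1 (chr5:104434861-104435110, plus strand): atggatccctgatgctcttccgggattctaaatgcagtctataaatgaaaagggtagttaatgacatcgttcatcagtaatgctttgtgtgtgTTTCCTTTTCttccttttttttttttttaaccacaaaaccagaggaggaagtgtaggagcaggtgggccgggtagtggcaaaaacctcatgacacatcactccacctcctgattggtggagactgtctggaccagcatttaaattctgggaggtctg
Wfdc17 (chr11:83703806-83704055, plus strand): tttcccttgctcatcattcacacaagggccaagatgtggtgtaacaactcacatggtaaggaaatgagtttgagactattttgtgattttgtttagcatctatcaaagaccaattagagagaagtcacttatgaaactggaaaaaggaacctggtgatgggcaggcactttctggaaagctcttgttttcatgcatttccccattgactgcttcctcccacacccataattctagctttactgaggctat
Irf7 (chr7:141266425-141266674, minus strand): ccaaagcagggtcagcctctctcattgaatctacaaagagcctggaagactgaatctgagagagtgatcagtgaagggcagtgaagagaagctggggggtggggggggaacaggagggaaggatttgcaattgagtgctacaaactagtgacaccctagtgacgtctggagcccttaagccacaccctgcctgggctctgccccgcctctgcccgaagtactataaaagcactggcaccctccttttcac
Ifit3 (chr19:34583279-34583528, plus strand): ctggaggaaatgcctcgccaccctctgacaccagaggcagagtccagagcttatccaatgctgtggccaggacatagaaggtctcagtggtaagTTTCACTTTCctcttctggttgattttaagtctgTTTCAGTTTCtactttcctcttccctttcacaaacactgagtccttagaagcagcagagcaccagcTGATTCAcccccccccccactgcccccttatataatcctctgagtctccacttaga
Isg15 (chr4:156200819-156201068, minus strand): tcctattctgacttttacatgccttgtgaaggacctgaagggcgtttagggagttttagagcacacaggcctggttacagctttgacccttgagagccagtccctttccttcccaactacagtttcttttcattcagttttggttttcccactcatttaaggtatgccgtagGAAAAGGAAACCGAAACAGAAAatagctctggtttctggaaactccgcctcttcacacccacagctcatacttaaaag
The motifs were GAAANN followed directly by GAAA (the core of the interferon-stimulated response element), TTCNNNGAA (the palindrome bound by STAT proteins), TTGCNNAA (C/EBP), TGANTCA (AP-1) and GCCNNNGGC (AP-2), searched on both strands. The Spp1 window shown held 1 match, to the interferon element core. The window of its second start (chr5:104435942-104436191) held 1, to the C/EBP motif, and Wfdc17 and Irf7 held none of the 5. Ifit3 held 2 matches to the interferon core and 1 to AP-1, and Isg15 held 3 overlapping matches to the interferon core. Among 32851 windows of the same length, 2.98% held the interferon core, 7.02% the STAT palindrome, 9.56% the C/EBP motif, 6.75% AP-1 and 13.7% AP-2. Among genes tested below, the interferon core was present in 3.36% of all 7318 with a window, 7.36% of the 774 higher in members and 3.02% of the 993 lower. A match is a string of letters and was not tested as a binding site.

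The score had no gap at the boundary. The lowest members scored 115.142 and 115.244 UMIs per 10000 and the highest of the other progenitors 115.068 and 114.934. The median over all progenitors was 4.93, and 1141 progenitors (26.0%) had none of the 4 transcripts. The median of the members was 227 and the highest 2066. The members were defined as a range of the score. Whether they form a cell type of their own was not tested. A cut by rank can fall between close scores even inside a distinct group of cells, so the missing gap cannot decide this.

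**Figure D1:**
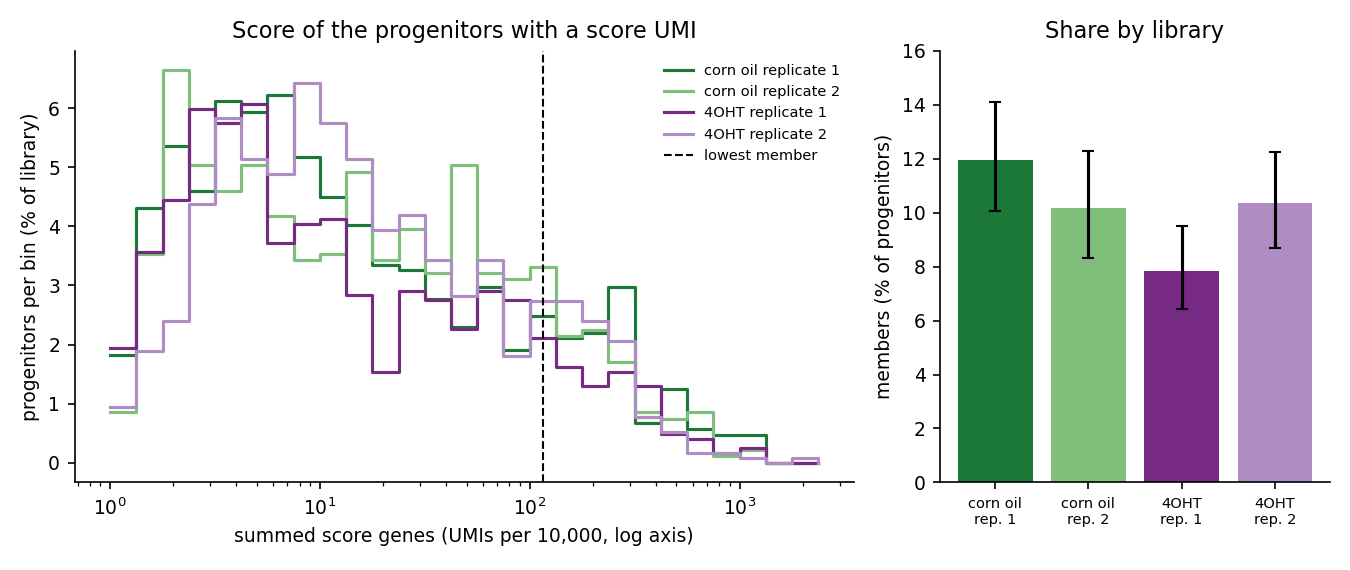
Left, score of the progenitors that had at least 1 score UMI (horizontal log axis, UMIs per 10000) against the percentage of each library's progenitors per bin, 1 line a library, with the lowest member dashed. Right, members as a percentage of progenitors by library, with exact 95% binomial intervals as bars: the shares ran from 7.85% to 12.0% and the score fell off without a gap at the boundary.

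Spp1 supplied most of the score. It made up 87.9% of the members' score UMIs, against 9.32% for Cd14, 1.37% for Wfdc17 and 1.37% for Lbp. It was the leading score gene in 409 of the 438 members, Cd14 in 22, Wfdc17 in 7 and Lbp in 0. Of the 22 cells led by Cd14, 17 came from 4OHT replicate 1. Both Spp1 and Cd14 were detected in 344 members (78.5%), from 55.4% in 4OHT replicate 2 to 91.8% in 4OHT replicate 1. All 4 score genes were detected in 23 members, and only 1 of them in 51.

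Because the rule fixed these genes, their levels are given without a test, as plain CPM. Spp1 (ENSMUSG00000029304, chromosome 5 from 104435118 to 104441050) stood at 31264 and 25117 in members of corn oil replicates 1 and 2, and at 24370 and 23402 in those of 4OHT replicates 1 and 2. In the other progenitors it stood at 1003, 1034, 523 and 1159, in the same order of libraries. Hormone-sensing luminal cells had 34.3 to 73.8 and basal cells 25.6 to 126. Spp1 was high and similar in the members of each library. The rule itself favours this, since 1 limit served all libraries and Spp1 made up most of the score.

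Cd14 was less even. Members had 2298, 2332, 6198 and 804 plain CPM of Cd14, and the other progenitors 290, 474, 569 and 215. The members of 4OHT replicate 1 were highest and those of 4OHT replicate 2 lowest, and the other progenitors kept the same order at the ends. Basal cells had 7.17 to 14.5 and hormone-sensing cells 17 to 30.1.

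Lbp (chromosome 2 from 158306493 to 158332852) stood at 544, 485, 324 and 234 in members and at 104, 126, 79.0 and 85.4 in the other progenitors. Wfdc17 (chromosome 11 from 83703991 to 83706268) stood at 36.0, 1257, 225 and 321 in members and at 16.8, 71.7, 38.3 and 23.6 in the others. Wfdc17 UMIs were found in 1.6% to 14.7% of members, so this gene marked a minority of them. Its share in the other progenitors was 1.41% to 5.72% and in basal cells 0.267% to 0.724%. With each cell thinned to 2000 UMIs, the shares were 1.6% to 11.6% in members, 0.783% to 4.31% in other progenitors and 0.0684% to 0.686% in basal cells. Median depths per library were 3831 to 6870 UMIs in members, 3557 to 5405 in other progenitors and 2828 to 5153 in basal cells.

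**Figure D2:**
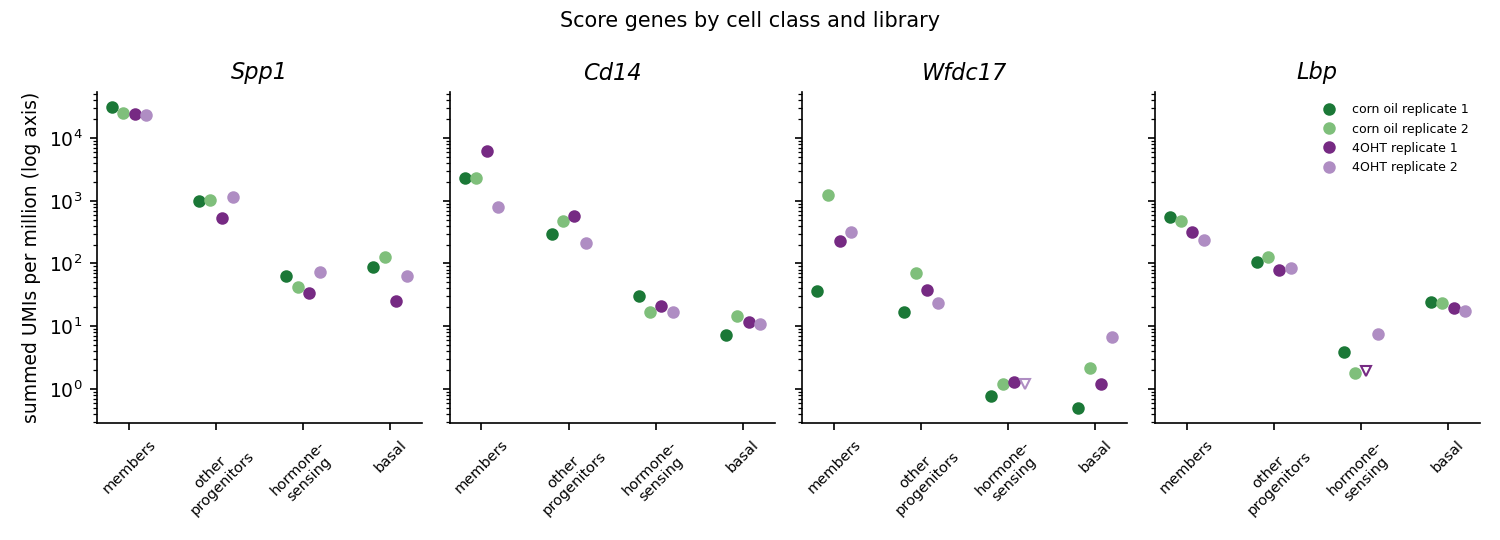
Plain CPM of the summed cells (log axis) of Spp1, Cd14, Wfdc17 and Lbp in members, other progenitors, hormone-sensing luminal and basal cells, 1 point a library; an open triangle marks a library with 0 UMIs, drawn at the 3-count limit. In members, Spp1, which made up most of the score, stood at 23402 to 31264 over the libraries, and Wfdc17 at 36.0 to 1257.

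Each score gene was also left out of the score in turn, and its level compared between the cells picked by the other 3 and the remaining progenitors. Since the 4 genes were proposed together, this is a description with no test. Over the libraries, Cd14 was 3.14 to 6.78 times as high in the cells so picked, Spp1 3.69 to 8.08 times and Lbp 2.62 to 4.76 times. Wfdc17 ranged from 1.06 times in 4OHT replicate 1 (57.2 against 54.1 plain CPM) to 7.54 times in corn oil replicate 2. Leaving Spp1 out exchanged most of the cells: 193 of the 438 cells picked without it were members, against 409 without Cd14, 433 without Wfdc17 and 432 without Lbp.

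At the 10% limit of the rule, the share of members among progenitors overlapped between the treatment groups. Members made up 12.0% (exact 95% binomial interval 10.1% to 14.1%, 125 cells) of the progenitors in corn oil replicate 1 and 10.2% (8.31% to 12.3%, 95 cells) in corn oil replicate 2. The shares were 7.85% (6.41% to 9.49%, 97 cells) in 4OHT replicate 1 and 10.4% (8.68% to 12.3%, 121 cells) in 4OHT replicate 2; these intervals cover counting error only. The share was lowest in 4OHT replicate 1, and the groups overlapped. The means were 9.11% ± 1.78 (SD, n = 2) for 4OHT and 11.1% ± 1.27 (SD, n = 2) for corn oil, a difference of -1.96 percentage points. An exact two-sided permutation test gave p = 0.667, where the smallest p that 2 against 2 libraries allow is 0.333. Other limits moved the order of the libraries. In the top 5%, the shares were 6.89% and 4.93% after corn oil and 4.21% and 4.20% after 4OHT, and in the top 20% they were 20.4% and 23.6% against 17.1% and 19.9%, so that both 4OHT-labelled libraries lay below both corn oil-labelled ones. Without Spp1 in the score, 4OHT replicate 1 had the highest share (14.1%) and 4OHT replicate 2 the lowest (4.88%).

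Members were deeper than the other progenitors. Their median UMIs per cell were 6870, 5396, 5051 and 3831, against 5405, 4889, 4584 and 3557. Their median genes per cell were 1804, 1568, 1674 and 1044, against 1287, 1262, 1143 and 940, and their median mitochondrial share was 1.41% to 1.92%, against 1.14% to 1.37%. Ribosomal protein genes took 24.3% to 37.4% of the members' UMIs and 35.1% to 40.1% of the others'. Counts from other progenitors drawn to the members' depth, and from cells thinned to 2000 UMIs, are given beside the first count below.

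Outside the 17 genes that the rule read, members differed from the other progenitors in many genes. UMIs were summed per library over members and over other progenitors and tested with edgeR's quasi-likelihood test, with libraries as blocks and Benjamini-Hochberg adjustment. At an adjusted p under 0.05, 976 of 9366 genes (10.4%) were higher in members and 1302 (13.9%) were lower, and the median log2 fold change of all genes was 0.01. The ranges of the 4 libraries did not overlap for 592 genes above (6.32%) and 768 below (8.2%). Without corn oil replicate 1, 477 were higher and 639 lower, and without 4OHT replicate 1, 554 and 707. Against other progenitors drawn to the members' depth, 784 were higher and 918 lower of 6874 genes. With each cell thinned to 2000 UMIs, the rule was applied again and picked 310 of 3100 progenitors, 277 of them members. Between the cells so picked and the rest, 268 genes were higher and 508 lower of 5684. With scaling by total counts alone, chosen after seeing the data, 2199 were higher and 537 lower and the median of all genes moved to 0.36, so every direction here is relative to the TMM-scaled bulk of genes.

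Values of single genes are CPM after TMM scaling, in the order corn oil replicate 1, corn oil replicate 2, 4OHT replicate 1, 4OHT replicate 2. Counts per gene list below stand beside the 10.4% higher and 13.9% lower over all 9366 genes, and small counts in short lists describe single genes only. The score genes had been proposed with results of these cells known, so genes that vary along with them describe the members and are not independent support for the set. The 15 genes with the largest rise were Wap, Saa1, Wfdc12, Slfn8, Iigp1, Ifi47, Chil1, Dhx58, Trim30a, Irf7, Sectm1a, Ifit3b, Oasl1, Gbp3 and Ifit3, with log2 fold changes from 2.14 to 3.63. Among them Irf7, Ifit3, Oasl1, Dhx58, Ifi47 and Iigp1 are known as interferon-induced genes. The 15 genes with the largest fall were Tppp3, Csf3, Fgfbp1, S100a14, Gem, S100g, Gdf15, Ptn, Cxcl2, Fam107b, Lgals3, Timp3, Ero1l, Mthfd2 and Cavin2, from -4.36 to -2.41. The members' range lay below that of the others for 14 of the 15 that fell and above it for 4 of the 15 that rose. Over all 9366 genes, the shares were 8.2% below and 6.32% above. The named genes were chosen for large changes in the same direction in all 4 libraries, which favours separate ranges, so these counts are a description. Slfn8, Iigp1, Ifit3, Ifit3b, Gbp3, Trim30a and Saa1 belong to families with close copies, whose reads the counting could have split.

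**Figure D3:**
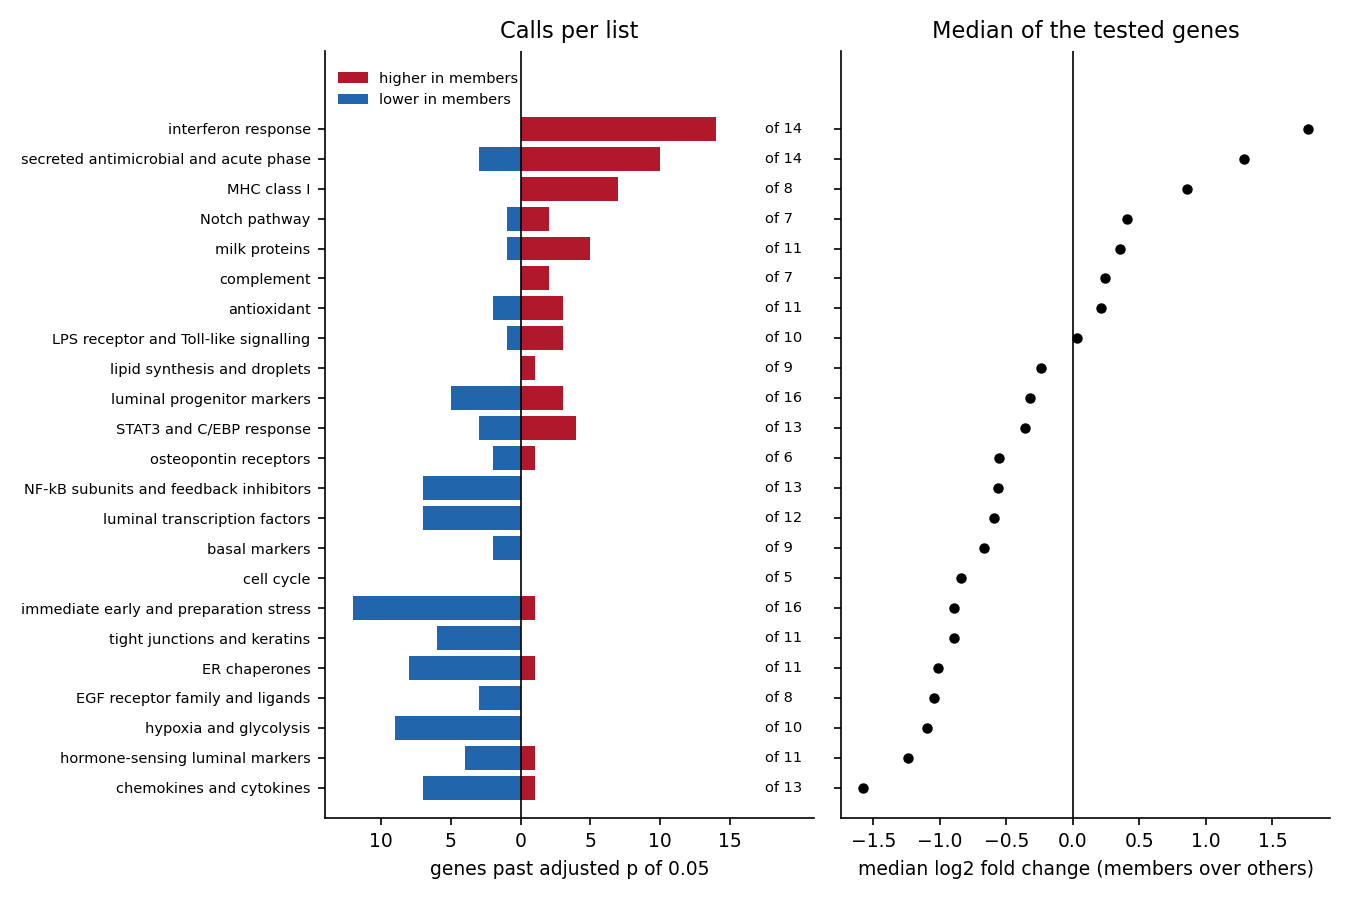
Left, genes of each list past an adjusted p of 0.05 (bars to the right, higher in members; to the left, lower), with the number tested beside them; right, median log2 fold change of the tested genes. Lists with at least 5 tested genes are shown, from interferon response (14 of 14 higher, median 1.76) to chemokines and cytokines (7 of 13 lower, median -1.57).

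Genes of the interferon response were higher in members. All 14 tested genes of the list passed, with a median log2 fold change of 1.76, and 13 of the 14 were higher in each of the 4 libraries. Irf7, the transcription factor that amplifies the response, stood at 302, 292, 223 and 121 CPM in members and 49.9, 72.0, 40.8 and 31.9 in the others. The lowest member library lay above the highest of the others (log2 2.27 ± 0.15 SE, edgeR adjusted p = 5.3e-08). Bst2, which tethers budding virus particles, stood at 407, 497, 574 and 259 in members and 126, 158, 147 and 81.5 in the others. Its ranges did not overlap either (log2 1.75 ± 0.13, edgeR adjusted p = 1.9e-07).

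The members of 4OHT replicate 2 had the lowest levels of Irf7, Bst2, Ifit3, Isg15 and Irf1 among the member libraries. The other progenitors of that library were also the lowest among theirs for these genes. Ifit3, of the antiviral IFIT family, stood at 246, 221, 208 and 29.1 in members and 30.2, 59.5, 48.0 and 18.2 in the others, and the ranges overlapped through that library (log2 2.14 ± 0.22, edgeR adjusted p = 4.8e-06). Isg15, a ubiquitin-like modifier, stood at 468, 686, 761 and 275 in members and 114, 284, 172 and 86.9 in the others (log2 1.78 ± 0.16, edgeR adjusted p = 7.2e-07). Irf1 was the gene of the list that was not higher in each library: it stood at 51.5, 75.2, 63.3 and 15.7 in members and 28.2, 46.4, 32.0 and 26.0 in the others. Its call (log2 0.65, edgeR adjusted p = 0.027) was lost without corn oil replicate 1, without corn oil replicate 2 and without 4OHT replicate 1.

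Irf7 was spread over many members and not a few cells. A UMI of Irf7 was found in 23.1% to 62.4% of members and 6.12% to 17.9% of other progenitors, and in 3.77% to 7.88% of hormone-sensing cells. With cells thinned to 2000 UMIs, these shares were 11.3% to 42.4%, 3.12% to 8.87% and 0.851% to 3.07%. The members of 4OHT replicate 2 had the lowest share, 11.3% after thinning, which was still above the other progenitors of each library. The cell with the most Irf7 held 4.53% to 18.5% of a library's Irf7 UMIs in members.

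**Figure D4:**
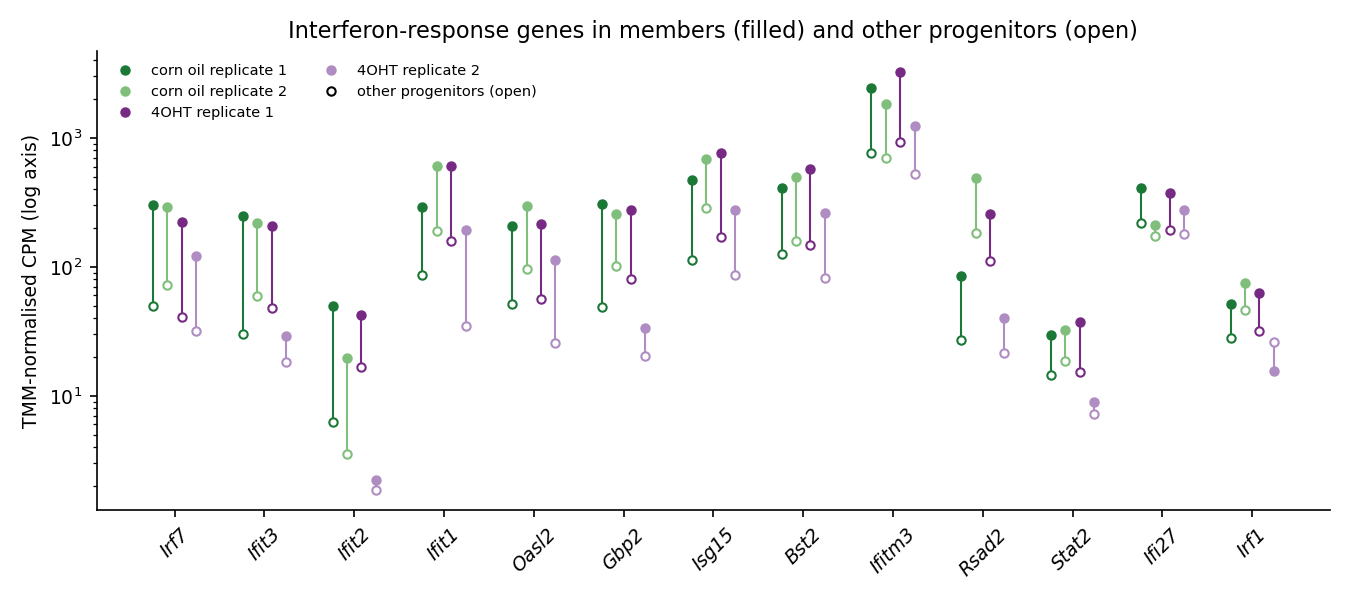
CPM after TMM scaling (log axis) of 13 interferon-response genes, 1 line a library, from other progenitors (open) to members (filled). The members were higher in each library for 12 of the 13 genes drawn, with Irf1 lower in 4OHT replicate 2.

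Genes that load peptides on MHC class I moved the same way, by less. Of 8 tested genes, 7 were higher in members and 0 lower, with a median of 0.86 (log2); Tap2 did not pass. B2m, the light chain of class I molecules, stood at 1440, 1077, 1449 and 955 CPM in members and 825, 755, 746 and 751 in the others (log2 0.66 ± 0.15, edgeR adjusted p = 0.0048). The heavy chain gene H2-D1 stood at 2372, 1684, 2338 and 1330 against 1105, 989, 1097 and 1034 (log2 0.83 ± 0.16, edgeR adjusted p = 0.0015). For both, the lowest member library exceeded the highest of the others. Tapbp, which encodes the loading chaperone tapasin, had the largest rise of the list (log2 1.44 ± 0.15, edgeR adjusted p = 6.4e-06). The B2m call was lost without corn oil replicate 1. MHC class II was nearly unmeasured, with 1 of 7 genes tested and 0 passing.

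Secreted antimicrobial and acute-phase genes split. Of 14 tested, 10 were higher, 3 lower and 1 did not pass, with a median of 1.29 (log2). Chil1, which encodes a chitinase-like protein, stood at 2555, 804, 1210 and 841 CPM in members and 334, 239, 203 and 177 in the others, with no overlap (log2 2.39 ± 0.18, edgeR adjusted p = 1.9e-07). Lcn2, whose product lipocalin 2 withholds iron from bacteria, was among the most abundant transcripts. It stood at 7053, 7043, 7732 and 12921 in members and 4612, 4789, 5858 and 8246 in the others. Lcn2 was thus higher in members within each library, although the library ranges overlapped (log2 0.55 ± 0.17, edgeR adjusted p = 0.025), and its call was lost without either corn oil replicate.

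Several of these genes rested on few cells. Wfdc12, a relative of Wfdc17, stood at 281, 368, 291 and 125 CPM in members and 20.6, 98.3, 100 and 3.22 in the others (log2 2.69 ± 0.35, edgeR adjusted p = 4.3e-05). Its UMIs were found in 1.65% to 15.2% of members, and 1 cell held 31.5% to 87.5% of a library's Wfdc12 UMIs in members. Saa1 had 5.25, 163, 27.1 and 15.7 CPM in members and 1.30, 22, 0 and 9.65 in the others, with at least 52.0% of each library's member UMIs in 1 cell. The 3 genes that were lower were Wfdc2 (51.5, 18, 66.3 and 29.1 CPM against 74.2, 69.9, 125 and 99.5), Slpi and Saa3. The Slpi call was lost without corn oil replicate 2. Saa3 had 0 UMIs in the members of every library.

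Around the LPS receptor the picture was uneven. Of 10 tested genes of LPS and Toll-like signalling, 3 were higher in members, 1 lower and 6 did not pass. Myd88, the adaptor of most Toll-like receptors, stood at 47.3, 71.9, 57.2 and 31.3 CPM in members and 19.5, 29.6, 21 and 13.7 in the others, with no overlap (log2 1.31 ± 0.17, edgeR adjusted p = 4.3e-05). Tlr4, the receptor that CD14 serves, was scarce: 10.5, 4.90, 16.6 and 13.4 against 7.82, 2.61, 6.20 and 3.22 (log2 1.10 ± 0.37, edgeR adjusted p = 0.037). The Tlr4 call was lost without corn oil replicate 2, without 4OHT replicate 1 or without 4OHT replicate 2. Ly96, which encodes the partner of Tlr4 that holds LPS, stood at 5.25, 8.17, 4.52 and 13.4 in members and 4.12, 11.4, 5.2 and 6.97 in the others and did not pass.

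Among genes of STAT3 and C/EBP signalling, 4 of 13 were higher in members, 3 lower and 6 did not pass. Lrg1, an acute-phase glycoprotein gene, stood at 331, 284, 354 and 210 CPM in members and 93.8, 76.5, 86.3 and 107 in the others (log2 1.70 ± 0.16, edgeR adjusted p = 1.6e-06). Stat3 itself stood at 313, 314, 298 and 248 against 209, 210, 161 and 167 (log2 0.66 ± 0.13, edgeR adjusted p = 0.0017), and the oncostatin M receptor gene Osmr at 66.2, 63.7, 64.8 and 42.5 against 26.7, 32.9, 27.2 and 22.5. None of these 3 overlapped between the cell groups. Myc was lower, at 32.6, 16.3, 31.6 and 40.2 against 97.5, 51.6, 106 and 69.7. In the complement list, Cfb and C2 were higher, 5 of 7 genes did not pass, and 0 genes were higher in all 4 libraries. The C2 call was lost without corn oil replicate 1, corn oil replicate 2 or 4OHT replicate 1, and the Cfb call without 4OHT replicate 1.

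Integrin and CD44 genes, whose products bind osteopontin, moved in both directions. Of 6 tested, 1 was higher, 2 lower and 3 did not pass. Cd44 stood at 63.0, 31.0, 84.4 and 85.0 CPM in members and 216, 90, 206 and 125 in the others, with the members below in every library (log2 -1.31 ± 0.18, edgeR adjusted p = 7.2e-05). Itgav, the alpha chain of the vitronectin receptor, was lower (log2 -0.81, edgeR adjusted p = 0.014) and Itgb5, a beta chain that pairs with it, higher (log2 0.81, edgeR adjusted p = 0.0090). The Itgav call was lost without corn oil replicate 1 and without 4OHT replicate 1, and the Itgb5 call without corn oil replicate 1.

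Milk protein genes were partly higher in members, unevenly over libraries and cells. Of 11 tested, 5 were higher, 1 lower and 5 did not pass, with a median of 0.36 (log2). Csn1s1, an alpha casein gene, stood at 1450, 3503, 343 and 881 CPM in members and 695, 1473, 136 and 333 in the others, higher in members within each library (log2 1.26 ± 0.15, edgeR adjusted p = 1.6e-05). Csn2, the beta casein gene, stood at 1688, 1944, 45.2 and 170 against 259, 504, 37.4 and 195 (log2 1.36 ± 0.34, edgeR adjusted p = 0.0078). Its call was lost without corn oil replicate 1 and without corn oil replicate 2. Wap, the whey acidic protein gene, had 9, 63, 2 and 12 UMIs in members, and 1 cell of corn oil replicate 2 held 73.0% of that library's 63. Without Spp1 in the score, the fitted values of Csn1s1, Csn2, Csn1s2a and Lalba turned negative. Btn1a1, a milk fat globule protein gene, was lower (log2 -0.97, edgeR adjusted p = 7.5e-04).

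The members overlapped in part with the progenitors richest in milk transcripts. The top 10% of progenitors by Csn1s1, Csn1s2a, Csn2 and Wap were also 438 cells, and 104 cells were in both sets, 23.7% of each. Corn oil replicate 2 supplied 60 of them, where 63.2% of the members were among the milk-rich cells, against 4.12% in 4OHT replicate 1. Milk-rich cells made up 26.1% of all progenitors in corn oil replicate 2 and 2.27% in 4OHT replicate 1, so the libraries themselves differed in this share. The top 10% by Cldn1, F3 and Krt7 shared 3 cells with the members (0.685% of each set) and the top 10% by Elf5, Plet1 and Rhov shared 19 (4.34%).

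Several chemokine and cytokine genes were lower in members. Of 13 tested, 7 were lower, 1 higher and 5 did not pass, with a median of -1.57 (log2). Csf3, which encodes the granulocyte growth factor G-CSF, stood at 5.25, 1.63, 4.52 and 8.94 CPM in members and 83.6, 25.8, 96.1 and 145 in the others (log2 -4.09 ± 0.24, edgeR adjusted p = 3.5e-08). The neutrophil attractant Cxcl1 stood at 29.4, 19.6, 102 and 96.1 in members and 167, 139, 350 and 345 in the others (log2 -2.13 ± 0.18, edgeR adjusted p = 3.9e-07). Cxcl16, a chemokine that attracts T cells, stood at 53.6, 53.9, 51.2 and 125 against 183, 166, 202 and 248 (log2 -1.57 ± 0.17, edgeR adjusted p = 5.8e-06). For all 3 genes the highest member library lay below the lowest of the others.

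Cxcl10, a chemokine gene induced by interferon, was the exception, at 73.5, 14.7, 24.1 and 0 CPM in members and 1.09, 24.4, 2.60 and 1.34 in the others. It was higher in 2 of the 4 libraries, and its call (log2 2.39, edgeR adjusted p = 0.019) was lost without corn oil replicate 1 and without 4OHT replicate 1 and turned to -1.03 in the top 5%.

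NF-kB genes and immediate early genes were lower as well. Of 13 NF-kB subunits and feedback inhibitors, 7 were lower, 0 higher and 6 did not pass (median -0.56); with total-count scaling 3 were lower. Nfkbia, the inhibitor that NF-kB itself induces, stood at 1062, 830, 1056 and 4286 CPM in members and 4810, 2983, 3643 and 5484 in the others (log2 -1.55 ± 0.24, edgeR adjusted p = 2.2e-04). The members of 4OHT replicate 2 stood apart from the other member libraries and inside the range of the others. Of 16 immediate early and heat shock genes, which also rise while tissue is dissociated, 12 were lower, 1 higher and 3 did not pass (median -0.89). Atf3 stood at 124, 88.2, 149 and 311 against 607, 310, 417 and 611, and the small heat shock protein gene Hspb1 at 3692, 2567, 4964 and 4474 against 10319, 5904, 8244 and 6995. Ier2 was higher, and Fos and Egr1 did not pass.

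Hypoxia and glycolysis genes were lower in members in 9 of 10 cases, with 0 higher and a median of -1.10 (log2). Bnip3, a mitochondrial protein gene induced by low oxygen, stood at 26.3, 55.5, 21.1 and 85.0 CPM in members and 120, 243, 214 and 194 in the others (log2 -2.13 ± 0.22, edgeR adjusted p = 5.7e-06). Slc2a1, the glucose transporter gene GLUT1, stood at 198, 147, 134 and 275 against 515, 299, 609 and 448 (log2 -1.32 ± 0.19, edgeR adjusted p = 1.2e-04). Neither gene's ranges overlapped. Pkm, pyruvate kinase, was the gene that did not pass (log2 0.10).

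Genes of endoplasmic reticulum chaperones and of the unfolded protein response were lower in 8 of 11 cases, higher in 1, with a median of -1.01 (log2). With total-count scaling 6 were lower and 1 higher. Ero1l, an oxidase of protein folding in that compartment, is outside this list and was 1 of the 15 largest falls. It stood at 115, 101, 69.3 and 320 CPM in members and 733, 650, 756 and 802 in the others (log2 -2.49 ± 0.24, edgeR adjusted p = 2.0e-06). Hspa5, the chaperone BiP, stood at 1290, 845, 722 and 1938 against 2900, 1462, 2716 and 2293. Xbp1, a transcription factor of the unfolded protein response and of secretory cells, went the other way at 505, 402, 289 and 528 against 186, 167, 155 and 220, with no overlap (log2 1.22 ± 0.14, edgeR adjusted p = 1.0e-05). The members of 4OHT replicate 2 had the highest Ero1l and Hspa5 of the 4 member libraries.

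The markers of luminal progenitors moved in both directions. Of 16 tested, 3 were higher, 5 lower and 8 did not pass, and the median turned from -0.32 to 0.02 with total-count scaling. Trf, the transferrin gene, stood at 8017, 5421, 5088 and 6958 CPM in members and 3303, 1902, 2285 and 3106 in the others (log2 1.28 ± 0.17, edgeR adjusted p = 4.6e-05). Aldh1a3, which makes retinoic acid, was lower at 51.5, 78.4, 259 and 170 against 314, 244, 335 and 336 (log2 -1.33 ± 0.24, edgeR adjusted p = 9.2e-04). Plet1 and Ehf, an epithelial transcription factor gene, were lower too. The Kit call (log2 0.67, edgeR adjusted p = 0.0499) was lost without corn oil replicate 1, without corn oil replicate 2 or without 4OHT replicate 1. The Elf5 call (log2 -0.37, edgeR adjusted p = 0.047) was lost in the same 3 fits. Over all 22 alternative settings, the Kit call was lost in 13 and the Elf5 call in 15.

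Luminal transcription factor genes were lower in 7 of 12 cases and higher in 0, with 2 higher and 5 lower under total-count scaling. Klf5 stood at 131, 129, 119 and 208 CPM in members and 302, 312, 353 and 299 in the others, and Elf3 at 57.8, 24.5, 51.2 and 53.7 against 132, 73.2, 98.9 and 83.1. Among tight junction and keratin genes 6 of 11 were lower and 0 higher. Krt7, a keratin of simple epithelia, stood at 46.2, 76.8, 148 and 150 against 369, 425, 755 and 406 (log2 -2.30 ± 0.20, edgeR adjusted p = 6.2e-07), and Cldn4 at 580, 606, 898 and 1612 against 2765, 1675, 3037 and 2511. The members were below the others in every library for these genes, and no range overlapped.

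Lgals3, which encodes the lectin galectin 3, was the most abundant of the 15 genes with the largest fall. It stood at 427, 183, 571 and 847 CPM in members and 2860, 1548, 3450 and 2650 in the others (log2 -2.51 ± 0.21, edgeR adjusted p = 3.9e-07). After thinning, its UMIs were found in 23.2% to 54.2% of members and 64.3% to 79.1% of other progenitors, against 6.57% to 15.5% of basal cells. Without thinning the shares were 40.0% to 74.2%, 77.0% to 88.2% and 12.1% to 32.8%.

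Of 11 hormone-sensing markers 4 were lower, 1 higher and 6 did not pass. The gene that was higher was Ly6a (Sca-1), a surface protein gene that interferon also induces, at 1846, 696, 1039 and 664 CPM in members and 364, 187, 258 and 142 in the others (log2 2.12 ± 0.15, edgeR adjusted p = 1.0e-07). The 14 listed hormone-sensing markers summed to 2236, 915, 1501 and 690 plain CPM in members, 505, 341, 353 and 330 in other progenitors and 2555 to 3738 in hormone-sensing cells. Ly6a supplied most of the members' sum, 1757 of 1925 UMIs in corn oil replicate 1, and 4 to 7 of the 14 genes had 0 UMIs in the members of a library. The part of hormone-sensing transcripts in the other results was not tested. Prlr, the prolactin receptor gene, was lower (log2 -1.56, edgeR adjusted p = 0.010), and its call was lost without corn oil replicate 1. Of 9 basal markers 2 were lower, 0 higher and 7 did not pass. Of 7 Notch genes 2 were higher and 1 lower, of 8 genes of the EGF receptor family 3 were lower, and of 11 antioxidant genes 3 were higher and 2 lower. Over all genes tested, 10.4% were higher and 13.9% lower. With total-count scaling the antioxidant list had 9 higher and 1 lower. The lipid synthesis list had 1 of 9 higher, close to the 10.4% over all genes, and the cell cycle list 0 of 5 passing.

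The AP-2 family, to which the targeted gene belongs, did not pass the test between members and other progenitors. Tfap2c stood at 48.3, 37.6, 30.1 and 47.0 CPM in members and 61.7, 41.5, 65.4 and 43.2 in the others (log2 -0.39 ± 0.19, edgeR adjusted p = 0.15). Tfap2a stood at 35.7, 52.3, 54.2 and 24.6 against 28.0, 43.4, 38.0 and 24.4 (edgeR adjusted p = 0.18), and Tfap2b did not pass either. Ranges overlapped for all 3 genes. With total-count scaling Tfap2a passed as higher in members. Tfap2c did pass, as lower in the selected cells, when the top 5% (log2 -0.72, edgeR adjusted p = 0.017) or the top 20% (log2 -0.51, edgeR adjusted p = 0.033) were taken, and without Spp1 in the score (log2 -0.69, edgeR adjusted p = 0.0032).

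Levels of 6 genes are given along the score, among members and among the other cells. The other progenitors were split into those with no score UMI (1141 cells) and the rest below and above their median (the lower and upper others), and the members likewise. Mean Irf7 over the 4 libraries was 13.2 ± 5.39 (SD, n = 4) plain CPM in cells with no score UMI. It was 15.8 ± 6.32 in the lower others, 91.8 ± 37.0 in the upper others, 222 ± 82.8 in the lower members and 289 ± 165 in the upper members. Irf7 was thus higher in the upper than in the lower others, before the boundary was reached.

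Chil1 followed the same course, at 59.5 ± 22, 107 ± 24.6, 426 ± 170, 1283 ± 959 and 1695 ± 903. Ero1l went from 960 ± 46.0 in cells with no score UMI through 697 ± 60.5 and 326 ± 67.5 to 147 ± 54.5 and 155 ± 140 in the lower and upper members. Lgals3 went from 2759 ± 323 to 442 ± 250 from the first step to the last. Not all genes were ordered in this way: Cxcl1 was at 220 ± 55.7, 240 ± 121 and 185 ± 97.9 in the 3 steps of the other progenitors, and at 89.9 ± 75.6 and 42.4 ± 29.9 in the members. H2-K1, a class I heavy chain gene, went from 363 ± 42.2 to 953 ± 310, and its 4OHT replicate 2 values stayed between 371 and 583. The steps are ordered by the rule, so they are given as a description.

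**Figure D5:**
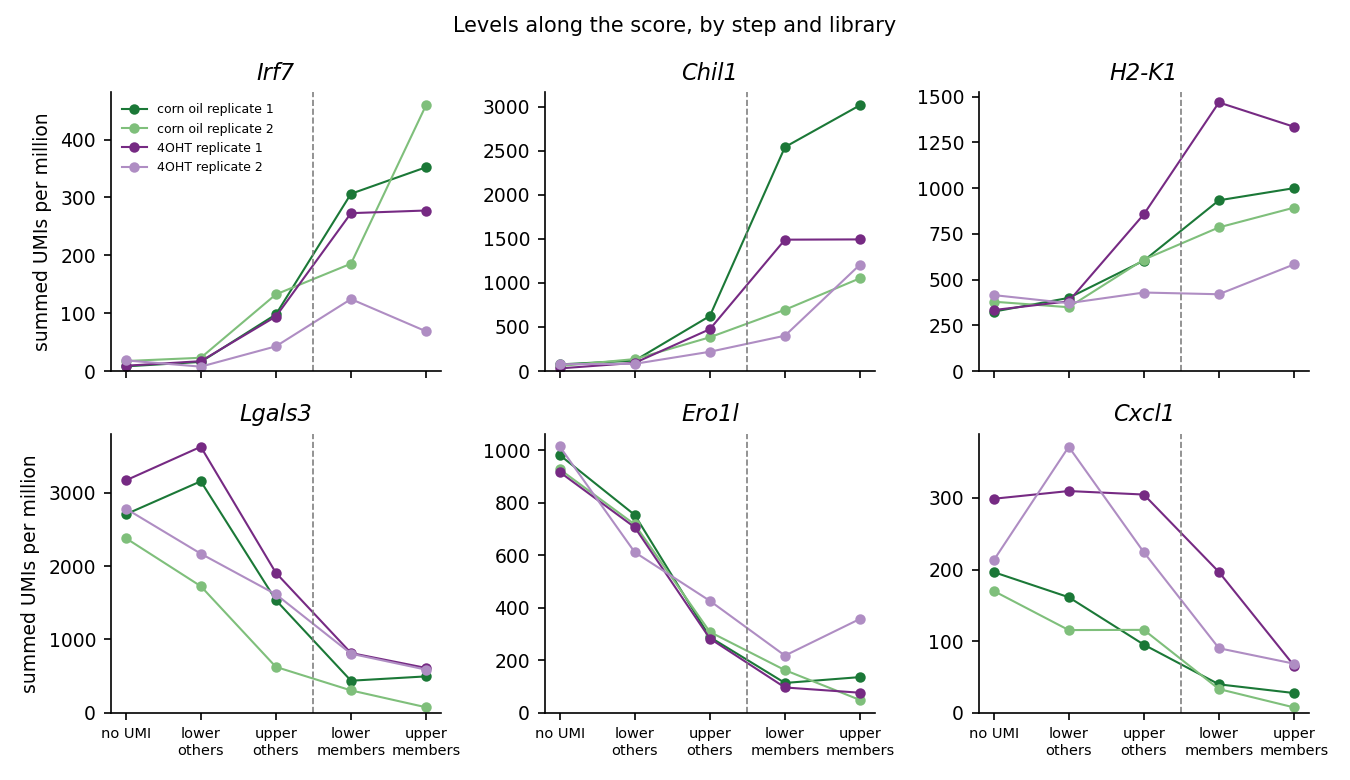
Plain CPM of 6 genes in the summed cells along 5 steps of the score, 1 line a library; the dashed line is the boundary of the members. Irf7, Chil1 and H2-K1 were higher and Lgals3, Ero1l and Cxcl1 lower toward the high end, and 4OHT replicate 2 had the lowest Irf7 and H2-K1 in the members.

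The 16 leukocyte markers, which include genes of macrophages that also express Cd14 and Spp1, summed to 16.7 to 43.7 plain CPM in members and 39.6 to 56.6 in other progenitors. Basal markers (12 genes) summed to 63.9 to 182 in members and 137 to 273 in other progenitors, against 4649 to 6257 in basal cells. Endothelial markers (6 genes) summed to 13.9 to 79.9 and 9.59 to 53.0, against 3369 to 4849 in endothelial cells. In the 32 cells classed as leukocytes the leukocyte markers summed to 4899 and 3999, in corn oil replicate 2 and 4OHT replicate 1, the libraries that held such cells. In the members of each library 14 or 15 of the 16 leukocyte markers had 0 UMIs. An automatic doublet threshold marked 0.0369% to 0.150% of cells, which is too few to have worked, so the cells with the highest doublet scores were left out as an alternative. That removed 7 members. After this 956 genes were higher and 1356 lower, and after leaving out progenitors with a leukocyte transcript 890 and 1264.

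Within the members, no gene passed the test between 4OHT-labelled and corn oil-labelled libraries. Of 4728 genes tested with edgeR, 0 passed (0.0%), while 85 had an unadjusted p under 0.05. DESeq2 called 1, and without 4OHT replicate 1 edgeR called 5 higher and 7 lower. Csn2 had the smallest p (log2 -4.13 ± 0.66 SE, edgeR adjusted p = 0.39), from 1607, 1190, 30 and 76 UMIs. Cxcl1 was at rank 3 (log2 1.97 ± 0.41, edgeR adjusted p = 0.999), and both 4OHT-labelled libraries lay above both corn oil-labelled ones. The other progenitors were ordered in the same way, at 350 and 345 CPM after 4OHT against 167 and 139 after corn oil. For an order of 2 against 2 libraries the smallest permutation p is 0.333. Tfap2c was at rank 2614 (log2 -0.21 ± 0.44, edgeR adjusted p = 0.999). With the replicate number as a block, edgeR called 1 gene, Csn2 (log2 -4.35, edgeR adjusted p = 2.2e-04). No source states that equal replicate numbers mark related mice, so the fit without the block was kept.

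The effect of the label differed between members and other progenitors in 1 of 9366 genes (0.0107%). That gene was Csn2, whose log2 difference of 4OHT against corn oil was lower by 2.33 ± 0.39 (SE) in members than in other progenitors (edgeR interaction term, adjusted p = 0.033). Its CPM were 1688 and 1944 in corn oil-labelled members and 45.2 and 170 in 4OHT-labelled ones, against 259 and 504, and 37.4 and 195, in the other progenitors. Csn2 UMIs were found in 19.2%, 45.3%, 3.09% and 8.26% of the members and in 4.89%, 19.0%, 1.84% and 2.49% of the others. The call was lost without corn oil replicate 1 (-1.95, edgeR adjusted p = 0.76), and over the other 7 settings the adjusted p ran from 9.3e-13 to 0.026. Leaving out corn oil replicate 2, 4OHT replicate 1 or 4OHT replicate 2 raised the number of genes called to 2 higher and 7 lower, 33 and 12, and 8 and 22. A single cell of the other progenitors of 4OHT replicate 2 held 69.8% of that library's Csn2 UMIs. Hp, the haptoglobin gene, came second (log2 -2.05 ± 0.42, edgeR adjusted p = 0.27) and did not pass.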

How the data were processed

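Single-cell RNA was measured with 10x Genomics 3′ libraries from 4 mice. The deposited matrices hold raw counts of UMIs per gene and cell, made by the authors with Cell Ranger 3.0.1, per the submitters' processing notes, which also name mm10. The files list 31053 genes. Cells with at least 1000 UMIs were classed by the marker rule given at the start of the report. Members and gene lists were chosen with earlier results of these data known.

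Counts were summed per library and cell group and tested with edgeR 4.0.16 (quasi-likelihood, TMM scaling, edgeR's default filter on low counts, R 4.3.3), with the library as a block for members against other progenitors, and Benjamini-Hochberg adjustment over all genes tested. The 17 genes read by the rule were left out of the tests. Each SE of an edgeR log2 value was its absolute value divided by the square root of the test's F statistic. It thus restates the test and is not a separate estimate. DESeq2 1.42.0, RLE factors, no filter, other top shares, thinning to 2000 UMIs, left-out libraries, doublet and quality filters and scores without each gene were alternatives. The scripts were tested on simulated data. Named genes were the 15 largest changes in each direction at an adjusted p under 0.05, changed the same way in all libraries, with a mean of at least 20 CPM where higher, without mitochondrial, ribosomal protein, Gm and Rik names. From each of the 28 lists, genes past the threshold and the most abundant could be named too. Promoter windows came from the RefSeq table on GRCm38.p6. For members against other progenitors and for the interaction, edgeR p-values rest on how the difference between the cell groups varied over these 4 libraries. Within members, they rest on the spread between libraries of the same label. In each fit edgeR moderates this spread over genes. The values of 1 gene are not reported here.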

Additional observations from a re-analysis of the deposited data

Results flagged for a closer look

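The 4OHT difference of Csn2 was not the same in members and in the other progenitors by the edgeR interaction term (log2 -2.326, adjusted p = 0.0325), with 1 gene of 9366 passing. Csn2 had 1607 and 1190 UMIs in corn oil-labelled members and 30 and 76 in 4OHT-labelled ones. Without corn oil replicate 1 the call was lost (-1.95, adjusted p = 0.761).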

How the results depend on the processing

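Over 3584 comparisons of 169 results under up to 23 alternatives, 3200 kept their direction and side of the threshold, 355 lost the call, 17 gained one and 12 reversed. Genes higher in members numbered 976, and 2199 with total counts only, 544 with DESeq2, 268 with thinning, 324 without the library term and 477 to 1123 with 1 library left out. Genes lower numbered 1302, and 537, 758, 508, 327 and 639 to 1317 in the same order. The cause was not tested, except that thinning and the lack of a library term tested fewer genes (5684 and 8343). Thinning also picked the cells anew, and 277 of its 310 were members. Within members, 4OHT against corn oil gave 3 higher and 10 lower without a filter, 1 lower with total counts only, 1 lower with DESeq2, and 0 to 5 higher and 0 to 7 lower with 1 library left out. The interaction gave 1 higher and 3 lower with total counts only, 3 and 12 without a filter, and 0 to 33 higher and 1 to 22 lower with 1 library left out.

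Cxcl10 reversed in the top 5% (-1.03) and without Cd14 in the score (-0.0797), and Saa3 in the top 20% (0.0386). Without Spp1 in the score, Csn2 (-0.42), Csn1s1 (-0.19), Csn1s2a (-1.21), Lalba (-0.32), S100a8 (-0.86) and Saa3 (1.25) reversed. Tfap2c within members ranged from -0.516 to 0.0773 with 1 library left out, reversing without corn oil replicate 1 (0.0304) and without 4OHT replicate 1. Its interaction ranged from -0.866 to 0.376, reversing without 4OHT replicate 1.

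Replicate numbers are shared by the groups, but deviations of equally numbered members correlated at 0.147 over 4728 genes with only 2 pairs, and were not taken as pairs. With the replicate block, 1 gene was lower within members (Csn2, log2 -4.35, edgeR adjusted p = 2.2e-04) and 0 higher, and the share differed by -1.96 percentage points. Low counts per library (19 UMIs of the score genes in the poorest member) limit single-cell calls.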
